A study of Mus musculus with 9 samples.

Results

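The genes described here are 38 genes of the ATF4 amino acid response, measured in mouse splenic conventional dendritic cells (cDC). They were chosen as a list of known or proposed ATF4 targets and partners: 7 transcription factors and partners, 3 stress effectors, 9 enzymes of amino acid and one-carbon synthesis, 6 amino acid transporters and 13 genes for cytosolic tRNA synthetases and tRNA export. The genes were selected on the log2 difference between the arrays numbered replicate 1 and replicate 2 of the cDC2 groups as well as on their link to ATF4, so that difference is described below without a test. For each gene the transcript cluster (the probes of 1 gene locus) with the highest mean was used. Of the 38 genes, 36 had a cluster that carried their symbol alone, among 19938 such genes on the array. Aars was found only on a cluster shared with Exosc6, and Pycr1 on none of the clusters with a single symbol, so neither has a value here. The array annotation lists Mars under its present symbol, Mars1. Of the 36 genes, 35 passed the filter on dim genes (a group mean above 5.94 on the log2 scale in at least 1 group), as did 10728 genes in all, and Cth (cystathionine gamma-lyase), at 4.91 to 5.34 on every array, did not.

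ATF4 is the transcription factor of the integrated stress response. Kinases that sense amino acid shortage, unfolded protein, viral RNA or heme shortage phosphorylate the initiation factor eIF2, which slows general translation and raises translation of the Atf4 mRNA. ATF4 then pairs with C/EBP factors and turns on genes that make, import and charge amino acids, so its activity is read from its targets better than from its own mRNA. In dendritic cells the same pathway is known for its links to cytokine output and to the heavy protein synthesis of activated cells.

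The series holds 9 Affymetrix gene arrays of cDC sorted from the spleens of 129SvEv/Tac mice. Of these, 8 are cDC2 arrays, 2 for each of 4 groups: resting wild type (WT), activated WT, resting Batf-/- Batf3-/- double knockout (DKO) and activated DKO. The ninth is resting WT cDC1. Activation was by IFN-gamma (100 ng/ml) for 1 h, followed by LPS of E. coli (1 µg/ml) over the next 3 h. The genotype is written as Batf-/- Batf3-/-, with no Cre driver or restriction to a cell type. The labels state neither mouse age, nor if a group's arrays are from separate mice, nor if resting cells spent equally long in culture. P-values thus cover only the spread between these samples, and that spread may be technical. Nothing in the labels says what the replicate numbers stand for.

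Levels below are log2 intensities, and a difference of 1 is a doubling. Batf read 5.31 to 5.44 in DKO and 6.74 to 9.07 in WT cDC2, and Batf3 6.43 to 7.17 against 7.58 to 9.92. Whether the probes lie in the deleted parts is not stated. Of the 6 cDC2 markers, Irf4 and Sirpa were high on the cDC2 arrays and Cd4 also passed the filter. Clec4a4, Clec10a and Itgam were too dim everywhere to be tested. The mean level of the cDC2 markers was 6.83 to 7.24 in WT cDC2, 6.84 to 7.16 in DKO cDC2 and 5.30 in cDC1. Markers of all cDC averaged 10.21 to 10.69, 10.06 to 10.66 and 10.38 in the same order. The cDC1 markers Xcr1 and Clec9a were high on the cDC1 array and near background on the cDC2 arrays, as were the B cell gene Cd79a, the T cell gene Cd3g and the NK cell gene Ncr1 on all arrays. Marker lists of plasmacytoid dendritic cells, macrophages, monocytes and neutrophils were not all dim: 3 of 6, 6 of 7, 3 of 6 and 3 of 6 genes passed the filter. Of the B and plasma cell, T cell and NK cell lists, 2 of 7, 1 of 5 and 1 of 5 genes passed. All 8 cDC1 markers passed, and their mean level was 6.48 to 7.15 in WT cDC2, 6.19 to 6.95 in DKO cDC2 and 8.52 in cDC1. The replicate 2 array of resting WT cDC2 stood apart from its partner in interferon-stimulated genes, whose mean level over the list was 11.17 against 9.94, and against 9.27 and 9.19 in resting DKO cDC2. In bulk samples of this kind, fewer cells of a type and less RNA per cell cannot be told apart.

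ATF4 with a C/EBP partner binds the C/EBP-ATF response element, searched for here as TGATGNAA on both strands of RefSeq promoter windows of assembly GRCm38.p6 (250 bases before to 50 bases after a start site). A window was at hand for 29 of the 36 measured genes, and 9 of the 29 (31%) held the element, against 3.97% of all 32851 windows and 2.61% of the 8610 tested genes with a window. The matches are shown because they include 3 of the 8 genes with the largest replicate difference (Asns, Iars and Gars), a share near the 31% above. Slc7a5 and Nars, also among the 8, had no window. Nupr1, the listed gene with the largest activation difference, had a match too. Each is printed 5′ to 3′ on the strand of the gene with 11 bases on either side. Capitals mark the element, which appears as its reverse complement where it lies on the other strand.
Asns, chr6:7693214-7693243, minus strand: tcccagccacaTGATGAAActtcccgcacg
Iars, chr13:49682126-49682155, plus strand: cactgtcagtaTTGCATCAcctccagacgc
Gars, chr6:55037960-55037989, plus strand: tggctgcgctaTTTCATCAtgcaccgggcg
Slc7a11, chr3:50443642-50443690, minus strand: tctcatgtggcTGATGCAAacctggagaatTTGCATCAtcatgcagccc
Chac1, chr2:119351038-119351067, plus strand: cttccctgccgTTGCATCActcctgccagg
Yars, chr4:129189895-129189924, plus strand: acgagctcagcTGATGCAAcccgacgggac
Tars, chr15:11399655-11399684, minus strand: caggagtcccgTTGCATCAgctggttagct
Trib3, chr2:152344028-152344057, minus strand: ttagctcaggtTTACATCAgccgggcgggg
Nupr1, chr7:126625562-126625591, minus strand: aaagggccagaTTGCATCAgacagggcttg
The elements of Iars, Yars and Trib3 began 8, 4 and 15 bases after the start site, and the others began before it, from 15 bases (Tars) to 193 bases (Chac1). Slc7a11 carried 2 elements in opposite orientation, 66 and 47 bases before the start. The full cAMP response element TGACGTCA, which cannot be a match of TGATGNAA as well, was in 0 of the 29 genes' windows. It was in 1.79% of all windows and in 3.6% of the 8610 tested genes with a window. A match is only a run of letters, and a window without one says nothing about ATF4.

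The arrays numbered 1 and 2 differed in these genes in every cDC2 group. Averaged over the 35 genes, replicate 1 arrays read 8.67 in resting WT, 8.57 in activated WT, 8.54 in resting DKO and 8.40 in activated DKO cDC2, and the replicate 2 arrays of the same groups read 8.08, 7.99, 7.99 and 7.90. The cDC1 array, which carries no number, read 8.01. Every replicate 1 cDC2 array was thus above every replicate 2 array, whatever the genotype and state. Gene by gene, 27 of 35 were lower on the replicate 2 array in all 4 groups (19% of all 10728 genes tested), 1 was higher in all 4 (23.9% of all genes), and 7 had mixed signs. For 20 genes the mean difference over the 4 groups was at least 0.5 (3.01% of all genes were lower in all 4 groups by that much and 3.78% higher, with none of the 35 among the latter), and for 16 the lowest replicate 1 array lay above the highest replicate 2 array (4.19% of all genes). Just inside the 0.5 line was Slc1a5 at -0.51 and just outside it Phgdh at -0.43. The median difference, replicate 2 minus replicate 1, was -0.54 over the 35 genes and 0.02 over all genes tested, and in single groups -0.59 (resting WT), -0.49 (activated WT), -0.60 (resting DKO) and -0.42 (activated DKO). Since the list was drawn up with this difference in view, nothing is read from these counts.

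**Figure D1:**
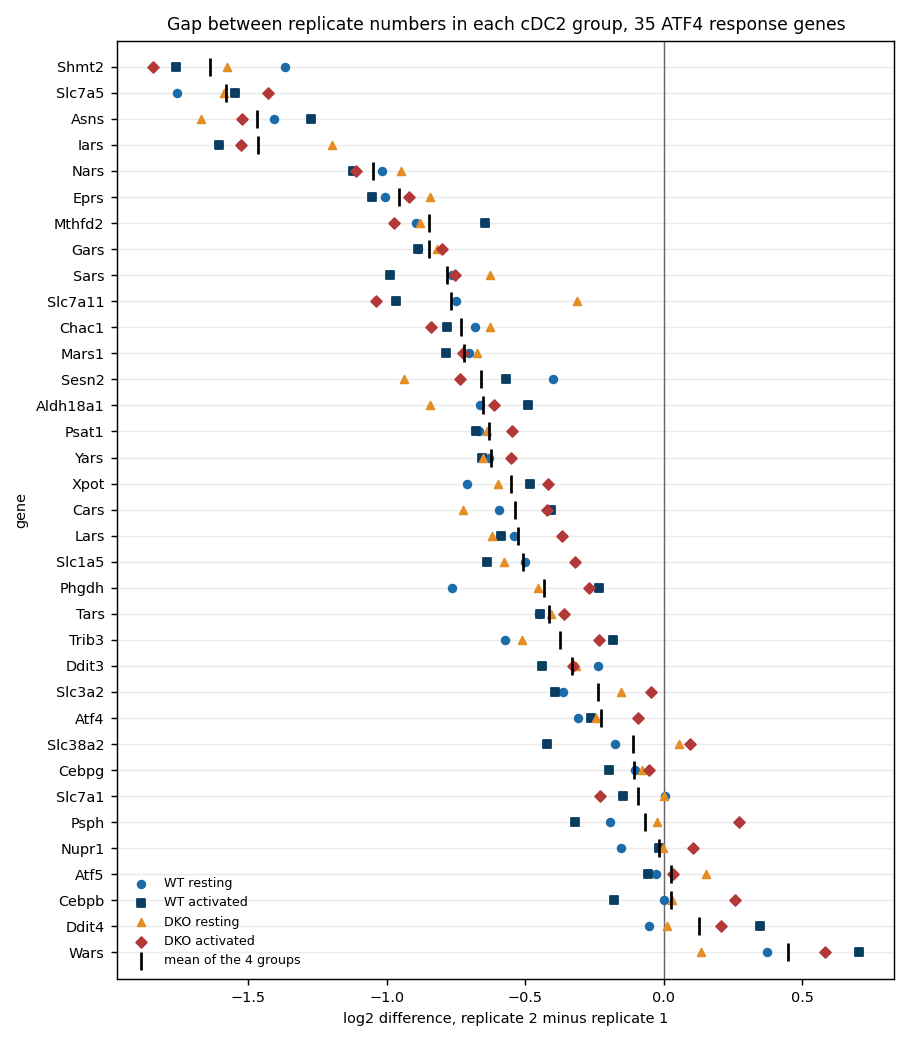
Replicate 2 minus replicate 1 in log2 units for each of the 35 tested genes, with 1 point for each of the 4 cDC2 groups and the mean of the 4. The means run from -1.64 (Shmt2) to 0.45 (Wars), and 27 genes have all 4 points below 0.

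The largest mean difference, that of Shmt2, was in the enzymes that make amino acids and one-carbon units. Values are given for the groups in the order resting WT, activated WT, resting DKO and activated DKO. Shmt2, the mitochondrial serine hydroxymethyltransferase, read 9.42, 9.06, 9.31 and 8.83 on the replicate 1 arrays, 8.05, 7.30, 7.73 and 6.99 on the replicate 2 arrays, and 7.95 on the cDC1 array. Asns, the asparagine synthetase, read 10.76, 10.68, 10.67 and 10.53 on the replicate 1 arrays, 9.35, 9.41, 8.999 and 9.01 on the replicate 2 arrays, and 9.26 on the cDC1 array. Both genes split the 8 cDC2 arrays by number with no overlap, by -1.64 ± 0.21 (SD, n = 4 groups; replicate 1 higher 3.11-fold) for Shmt2 and -1.47 ± 0.17 (2.77-fold) for Asns, and in both the cDC1 array read within the range of the replicate 2 arrays. Mthfd2, the mitochondrial methylene-tetrahydrofolate dehydrogenase, read 9.06, 9.28, 8.61 and 9.06 on the replicate 1 arrays, 8.16, 8.64, 7.73 and 8.08 on the replicate 2 arrays, and 8.79 on the cDC1 array. Its mean difference was -0.85 ± 0.14, but replicate 1 of resting DKO lay just below replicate 2 of activated WT. Among the other enzymes, Aldh18a1 (proline synthesis) and Psat1 (serine synthesis) were lower in all 4 groups, by means of -0.65 and -0.63. Phgdh, which opens the serine pathway, differed by -0.43, and Psph, which closes it, by -0.07 with the signs mixed.

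**Figure D2:**
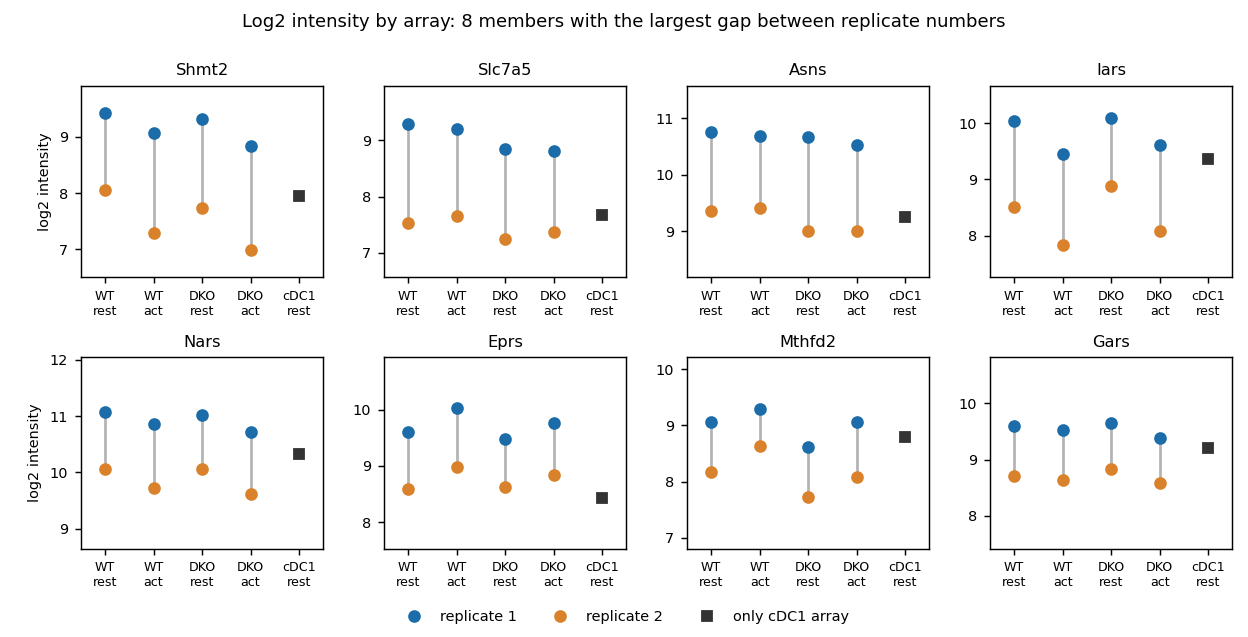
Log2 intensity on each of the 9 arrays for the 8 genes with the largest replicate difference, by group (rest, resting; act, activated), with the replicate numbers as separate markers. In Shmt2, Slc7a5, Asns and Iars all replicate 1 cDC2 points lie above all replicate 2 points.

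Transporters were split the same way only in part. Slc7a5, the light chain of the large neutral amino acid carrier, read 9.28, 9.20, 8.84 and 8.80 on the replicate 1 arrays, 7.52, 7.65, 7.25 and 7.37 on the replicate 2 arrays, and 7.68 on the cDC1 array. Its mean difference was -1.58 ± 0.14 (SD, n = 4 groups), a 2.99-fold higher replicate 1, with no overlap between the numbers. Its partner chain Slc3a2 differed by only -0.24. Slc7a11, the cystine carrier of system xc-, differed by -0.77, and Slc1a5, a carrier of glutamine and other neutral amino acids, by -0.51. Slc38a2, a sodium-coupled neutral amino acid carrier, and Slc7a1, the main carrier of arginine and lysine, differed by -0.11 and -0.09.

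In the group of tRNA synthetases and tRNA export, 11 of 12 tested genes were lower in replicate 2 in all 4 cDC2 groups. Of all genes tested 19% were, but the listed genes were selected on this difference. Iars, the isoleucyl synthetase, read 10.03, 9.44, 10.09 and 9.62 on the replicate 1 arrays, 8.51, 7.84, 8.89 and 8.09 on the replicate 2 arrays, and 9.36 on the cDC1 array. A second, dimmer Iars cluster, not used, read 8.88, 8.47, 8.76 and 8.45 on the replicate 1 arrays. It read 7.43, 6.87, 7.75 and 7.19 on the replicate 2 arrays and 7.90 on the cDC1 array. Nars, the asparaginyl synthetase, read 11.07, 10.85, 11.02 and 10.72 on the replicate 1 arrays, 10.06, 9.73, 10.07 and 9.61 on the replicate 2 arrays, and 10.33 on the cDC1 array. Mean differences were -1.46 ± 0.18 for Iars and -1.05 ± 0.08 for Nars (SD, n = 4 groups), with no overlap between the numbers, and for both the cDC1 array lay between the resting WT arrays. Eprs, the synthetase for glutamate and proline, read 9.60, 10.03, 9.47 and 9.76 on the replicate 1 arrays, 8.59, 8.98, 8.63 and 8.84 on the replicate 2 arrays, and 8.42 on the cDC1 array. Gars, the glycyl synthetase, read 9.60, 9.53, 9.65 and 9.38 on the replicate 1 arrays, 8.71, 8.64, 8.84 and 8.58 on the replicate 2 arrays, and 9.20 on the cDC1 array. Eprs differed by -0.96 ± 0.09 and Gars by -0.85 ± 0.05, again without overlap. Sars, Mars1, Yars, Cars, Lars and Tars followed at means from -0.78 to -0.42, with Xpot, the tRNA export receptor, at -0.55. Wars, the tryptophanyl synthetase and also an interferon-induced gene, was the exception: it was higher in replicate 2 in all 4 groups, by 0.45 ± 0.25.

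Of the 7 transcription factors and partners, 4 were lower in replicate 2 in all 4 groups, where 19% of all genes were. Their differences were smaller than in the other roles (median -0.11). Atf4 itself read 9.70, 9.54, 9.78 and 9.63 on the replicate 1 arrays, 9.39, 9.27, 9.54 and 9.54 on the replicate 2 arrays, and 9.47 on the cDC1 array. It was lower in replicate 2 in all 4 groups but by a mean of only -0.23 ± 0.09 (SD, n = 4 groups), and the numbers met at 9.54. Trib3, a pseudokinase that feeds back on ATF4, and Ddit3 (CHOP), a stress-induced C/EBP family partner, differed by -0.38 and -0.33, and in Trib3 the numbers did not overlap (6.53 as the lowest replicate 1 array, 6.36 as the highest replicate 2 array). Cebpg, Nupr1, Atf5 and Cebpb lay between -0.11 and 0.03. Of the stress effectors, Chac1, which breaks down glutathione, and Sesn2, a leucine sensor upstream of mTORC1, differed by -0.73 and -0.66. Ddit4, an mTORC1 inhibitor, read close to the filter line of 5.94, at 5.89 to 6.30, and differed by 0.13. Among genes with a promoter window, the median difference was -0.73 for the 9 with the ATF4 element and -0.38 for the 20 without. Over all tested genes with a window it was -0.02 with the element and 0.02 without. The listed genes were selected on this difference and on their link to ATF4, so nothing is read from their medians.

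Related genes outside the list were counted in the same way. Of all genes tested, 19% were lower in replicate 2 in all 4 groups and 23.9% higher. The listed genes were selected on this difference, and the related lists were chosen with earlier results known. Nothing is therefore read from the contrast between them. Of 10 other cytosolic tRNA synthetases tested, 4 were lower in replicate 2 in all 4 groups (median difference -0.08), and of 14 mitochondrial synthetases 2 were (median 0.05). The kinases, phosphatase subunits and exchange factor subunits around eIF2 had a median of 0.00 over 13 genes, and other ATF4-linked stress genes 0.04 over 10. Other amino acid transporters (13 genes) and other one-carbon and amino acid enzymes (10 genes) each had a median of 0.02, and genes of amino acid sensing by mTORC1 0.01, with 6 of 22 higher in all 4 groups. Single genes of these lists, picked after their values were seen, lay far to either side. Lower in replicate 2 were the transcription factor Atf3 (-0.79), the transporters Slc38a1 (-0.97), Slc6a9 (-0.75) and Slc1a4 (-0.74), and Mthfd1l (-0.72), an enzyme of mitochondrial folate metabolism next to Mthfd2. Higher in replicate 2 were the transporter Slc7a8 (0.88), Tyms (0.67), which makes thymidylate, and Castor1 (0.66), an arginine sensor of mTORC1. Genes of the ATF6 and XBP1 branch of the unfolded protein response had a median of -0.27 over 18 genes with 12 lower in all 4 groups. NRF2 targets had a median of -0.21 over 14 with 8 lower, and immediate early genes -0.20 over 13 with 8 lower. In cytosolic heat shock genes, 8 of 8 were higher in replicate 2 in all 4 groups, with a median of 0.57. Their mean level was 9.53 to 9.96 on the replicate 1 cDC2 arrays, 10.42 to 10.74 on the replicate 2 arrays and 9.87 on the cDC1 array, so it moved with the replicate number as the ATF4 genes did, in the other direction. Its part in the split, like that of the interferon-stimulated genes (median 1.00 in resting WT and -0.16 in resting DKO), was not tested.

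**Figure D3:**
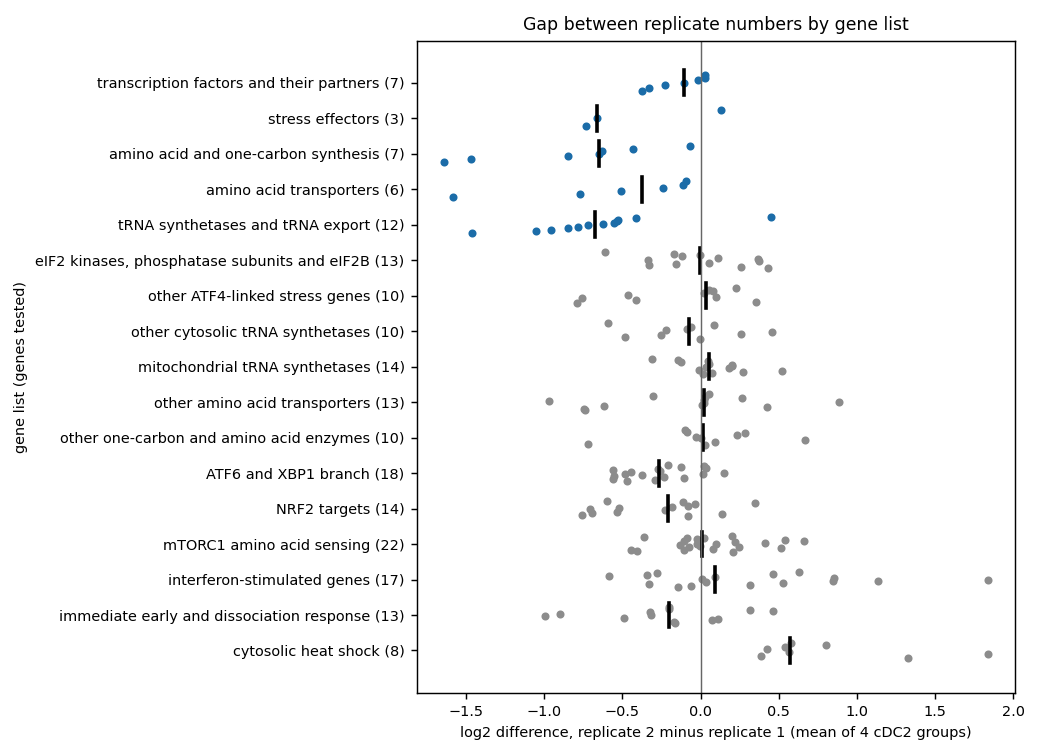
Mean replicate 2 minus replicate 1 difference in log2 units for each gene, by gene list, with the median of each list. The listed synthetases, synthesis enzymes and stress effectors have medians of -0.67, -0.65 and -0.66, the listed transcription factors -0.11, and the heat shock genes 0.57. The listed genes were selected on this difference.

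The size of this split can be set beside the study's own contrasts, as a description, since the genes were selected on it. The median absolute difference over the 35 genes was 0.54 between replicate numbers, 0.32 between activated and resting cells (mean of both genotypes), 0.12 between genotypes (mean of both states) and 0.28 between subsets. Over all genes tested the same medians were 0.14, 0.23, 0.09 and 0.27. The replicate difference was larger in size than the activation difference in 24 of 35 genes, than the genotype difference in 30 and than the subset difference in 22, against 33%, 61.2% and 30.4% of all genes tested. Because replicates set the error of each test, genes with a large split had wide standard errors. For the mean activation difference the error was 0.66 for Shmt2, 0.63 for Slc7a5 and 0.59 for both Asns and Iars, against 0.07 for Nupr1 and 0.08 for Slc7a1. The tests below were made with limma across 10728 genes with Benjamini-Hochberg adjustment, and a gene was called at an adjusted p below 0.05. The resting WT cDC2 arrays serve the WT activation, the resting genotype and the subset comparison, which are therefore not independent of each other.

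**Figure D4:**
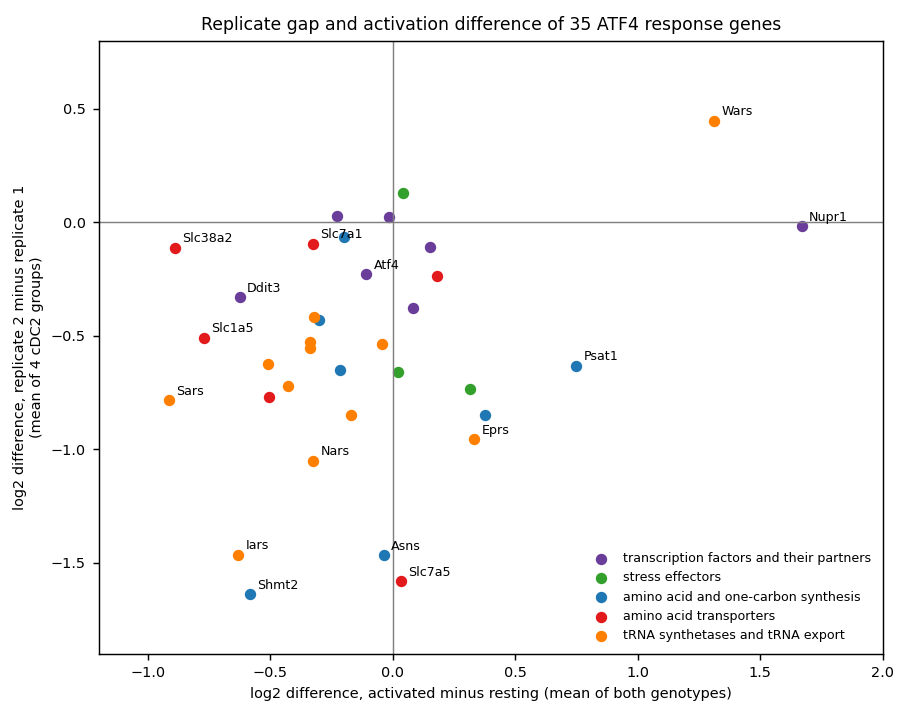
Mean replicate difference (replicate 2 minus replicate 1) against the mean activation difference of both genotypes for the 35 genes, both in log2 units. Shmt2, Slc7a5, Asns and Iars lie far out on the replicate axis, and Nupr1 (1.67), Wars (1.31), Slc38a2 (-0.89) and Sars (-0.91) far out on the activation axis.

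Activation with IFN-gamma and LPS raised Nupr1 and Wars and lowered Slc38a2 in cDC2 of both genotypes. Nupr1, a small stress-induced chromatin protein, read 7.72 and 7.57 (resting WT), 9.13 and 9.11 (activated WT), 7.001 and 6.999 (resting DKO), 8.81 and 8.92 (activated DKO), and 6.92 in cDC1. Activated and resting arrays did not overlap, and the difference was 1.47 ± 0.10 (SE) in WT (adjusted p = 0.00282) and 1.87 ± 0.10 in DKO (adjusted p = 8.04e-04). Wars read 8.84 and 9.22 (resting WT), 9.94 and 10.65 (activated WT), 8.81 and 8.94 (resting DKO), 9.94 and 10.52 (activated DKO), and 8.24 in cDC1. All activated arrays were above all resting ones, by 1.27 ± 0.29 in WT (adjusted p = 0.0454) and 1.36 ± 0.29 in DKO (adjusted p = 0.0316). Slc38a2 read 9.69 and 9.52 (resting WT), 9.03 and 8.61 (activated WT), 9.86 and 9.91 (resting DKO), 8.85 and 8.94 (activated DKO), and 9.18 in cDC1. It fell without overlap, by 0.79 on the log2 scale (SE 0.15, adjusted p = 0.0328) in WT and by 0.99 (SE 0.15, adjusted p = 0.0132) in DKO.

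In WT, 2 of 35 genes were thus called higher and 1 lower, where 3.97% and 6.57% of all genes were. In DKO the counts were also 2 and 1, where 5.82% and 7.9% of all genes were. These shares lie near the background. With quantile normalization the calls over all genes in WT were 459 higher and 478 lower in place of 426 and 705, and the listed genes called were still 2 and 1. The WT calls of Wars and Slc38a2 lay close to the threshold. Leaving out any 1 of the 8 cDC2 arrays took away the call of Wars in WT (adjusted p 0.0569 to 0.187), with differences from 0.91 to 1.62. For Slc38a2 in WT, 7 of the 8 did so, with replicate 1 of activated WT as the exception. The differences of Slc38a2 over the 8 cases ranged from -0.999 to -0.58. In DKO both were lost when any 1 of the 4 DKO arrays was left out (up to 0.0878 for Slc38a2 and 0.128 for Wars), with differences from -1.04 to -0.94 for Slc38a2 and from 1.06 to 1.65 for Wars. Nupr1 stayed called in each case. The replicate number was also fitted as a block (replicate block), which takes the split out of the error. It called 6 of 35 genes higher and 12 lower in WT, where 11.4% and 23.9% of all genes were. In DKO it called 5 higher and 15 lower, where 13% and 25% were. The listed genes were selected on that split, so removing it favours them. Nothing is read from these counts beside the shares of all genes.

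Averaged over both genotypes, 6 of 35 genes were called, 2 higher (10.6% of all genes) and 4 lower (21.7% of all genes), shares no higher than over all genes. The higher ones were Nupr1 at 1.67 ± 0.07 (SE, adjusted p = 1.66e-04) and Wars at 1.31 ± 0.21 (adjusted p = 0.0063). Slc38a2 fell by 0.89 (SE 0.11, adjusted p = 0.00294), and 2 more transporters fell with it. Slc1a5 read 9.54 and 9.04 (resting WT), 8.88 and 8.25 (activated WT), 9.66 and 9.09 (resting DKO), 8.71 and 8.39 (activated DKO), and 8.39 in cDC1, a fall of 0.77 without overlap (SE 0.21, adjusted p = 0.0374). Slc7a1 read 10.72 and 10.72 (resting WT), 10.45 and 10.30 (activated WT), 10.65 and 10.65 (resting DKO), 10.45 and 10.22 (activated DKO), and 8.22 in cDC1. The fall of Slc7a1 was small but did not overlap, at 0.33 (SE 0.08, adjusted p = 0.0247). Ddit3 read 9.01 and 8.77 (resting WT), 8.48 and 8.04 (activated WT), 8.42 and 8.11 (resting DKO), 7.81 and 7.49 (activated DKO), and 8.63 in cDC1. It fell by 0.62 (SE 0.15, adjusted p = 0.0219), within each genotype without overlap.

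**Figure D5:**
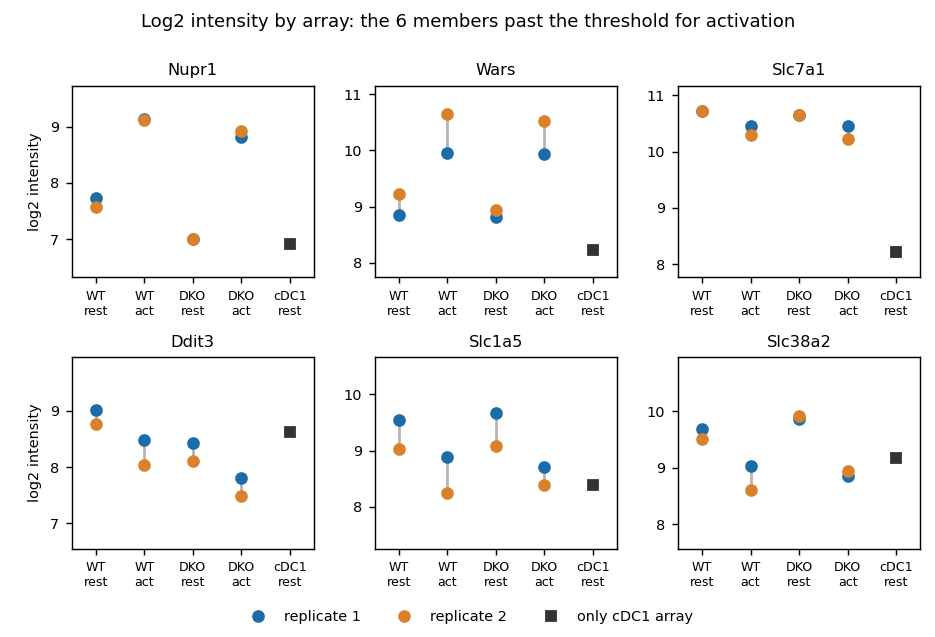
Log2 intensity on each of the 9 arrays for the genes called in any comparison, by group (rest, resting; act, activated), with the replicate numbers as separate markers. Nupr1 and Wars are higher and Slc38a2 lower on all activated than on all resting cDC2 arrays, and Slc7a1 is at 8.22 on the cDC1 array against 10.22 to 10.72 on the cDC2 arrays.

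The smaller changes lay close to the threshold too, and kept their direction with 1 array fewer. Ddit3 was not called without replicate 1 of resting DKO, replicate 2 of activated DKO, replicate 1 of resting WT or replicate 2 of activated WT (adjusted p 0.0589 to 0.0681), and its difference ranged from -0.73 to -0.51. Slc1a5 was not called without any of those arrays or replicate 1 of activated DKO, with an adjusted p of up to 0.107 and differences from -0.93 to -0.61. Slc7a1 was lost without any array but the replicate 1 arrays of activated WT and activated DKO, with an adjusted p of up to 0.0714 and differences from -0.38 to -0.27. Without any of the first 4 arrays named, 3 genes were called in place of 6. Nupr1, Wars and Slc38a2 stayed called in all 8 cases. Without replicate 2 of resting WT, the array high in interferon-stimulated genes, Wars differed by 1.40 (adjusted p = 0.0137).

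Several genes had the same sign in each genotype and number and still missed the threshold. Sars, the seryl synthetase, had a mean activation difference of -0.91 ± 0.32 (SE, adjusted p = 0.0724), although activated minus resting was -0.83 and -1.05 in WT and -0.82 and -0.95 in DKO for replicates 1 and 2. Psat1 had 0.75 ± 0.26 (adjusted p = 0.0693). With the replicate block both were called (adjusted p = 2.31e-04 for Sars and 1.93e-04 for Psat1). They were among 6 listed genes higher and 17 lower, where 17% and 35.7% of all genes were. The selection on the split favours these counts too. Between same-numbered arrays, 19 of the 35 genes were lower on activation in all 4 pairs (42.5% of all genes) and 8 were higher (22.1%). Atf4 differed by -0.11 ± 0.11 (adjusted p = 0.495). The median was -0.20 over the 35 genes and -0.08 over all genes. With 1 array left out, the median of the 35 ranged from -0.38 (without replicate 2 of resting WT) to -0.05 (without replicate 2 of activated WT), and 20 to 26 genes were below 0. For the 6 transporters it was -0.41, with a range from -0.57 (without replicate 1 of activated DKO) to -0.26 (without replicate 2 of activated DKO). Each omission leaves a group with 1 replicate number, so the replicate difference enters both ranges.

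Of the 13 tested regulators around eIF2, which act upstream of ATF4, 3 rose and 5 fell on activation (mean of both genotypes): Eif2ak2 (PKR, the kinase that senses double-stranded RNA and is itself interferon-induced) rose by 1.60, Ppp1r15b (the constitutive eIF2 phosphatase subunit) by 1.25, and Impact, an inhibitor of the amino acid sensor GCN2, fell by 0.99. Of 10 other ATF4-linked genes, 1 rose (Jdp2, 0.64) and 2 fell (Herpud1, -1.28, and Ern1, -0.49). Of 13 other amino acid transporters, 1 rose (Slc7a2, an arginine carrier, 1.44) and 6 fell, led by Slc43a2 (-1.66) and Slc38a9 (-0.91). Of the other cytosolic synthetases 0 of 10 rose and 4 fell, of the mitochondrial ones 0 of 14 rose and 3 fell, and of the NRF2 targets 1 of 14 rose and 7 fell, led by Gclc (-1.75) and Hmox1 (-1.65). All of these stand against 10.6% of all genes rising and 21.7% falling.

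In resting cells and in the mean of both states, the 2 listed genes lowest in DKO against WT were Ddit3 and Nupr1. Neither was called without the replicate block. In that fit by limma, 0 of 35 were called in resting cells, in activated cells or in the mean of both states, where 0.0186% of all genes were called lower and 0% higher in each. At an unadjusted p below 0.05, 2 of 35 were lower and 0 higher in each comparison, and these were Ddit3 and Nupr1 each time. Over all genes 3.01%, 2.36% and 4.51% were lower at that threshold in resting cells, activated cells and the mean, and 3.58%, 3.59% and 6.27% higher. Ddit3 was lower in DKO in both states and for both numbers, by -0.59 and -0.66 in resting and -0.67 and -0.55 in activated cells, with a mean of -0.62 ± 0.15 (SE, adjusted p = 0.221). Nupr1 was lower by -0.72 and -0.57 in resting and by -0.31 and -0.19 in activated cells, with a mean of -0.45 ± 0.07 (adjusted p = 0.103). For both genes the DKO and WT arrays of a state did not overlap. With the replicate block, Ddit3 (adjusted p = 0.038) and Nupr1 (0.0393) were called lower in resting cells, where 0.419% of all genes were, and Ddit3 (0.0461) in activated cells, where 0.289% were. In the mean of both states the replicate block called 4 of 35 lower and 0 higher, where 2.6% and 2.98% of all genes were: Ddit3 (adjusted p = 0.00714), Nupr1 (0.0184), Mthfd2 (difference -0.42, 0.0292) and Slc7a5 (-0.35, 0.042). As in the activation fits, the selection on the split favours calls of listed genes with the block. Differences of all 35 genes lay between -0.62 and 0.22, and 26 were below 0, with a median of -0.08 against 0.01 over all genes. Leaving out 1 array leaves its group with 1 replicate number, so the replicate difference enters the genotype difference. The direction turned with some arrays left out, but such cases cannot say how stable it is. The median was 0.08 without replicate 1 of resting WT and 0.04 without replicate 1 of activated WT. It was 0.05 without replicate 2 of resting DKO and 0.03 without replicate 2 of activated DKO. Without any of the other 4 it was -0.25 to -0.21, and 13 to 32 genes were below 0 over all these cases. Between same-numbered arrays, 14 were lower in DKO in all 4 pairs (13.3% of all genes) and 3 higher (18.9%), and Atf4 was among the higher ones, with 0.15 ± 0.11 (adjusted p = 0.716). All 7 synthesis enzymes tested had a mean difference below 0, from -0.42 (Mthfd2) to -0.03 (Psph). With 1 array left out 3 to 7 did, and there too the replicate difference enters. The 17 interferon-stimulated genes tested had a median genotype difference of -0.71 (-0.43 without replicate 2 of resting WT). Some marker lists of other cells also had a median below 0 (limma adjusted p 0.127 to 0.962): -0.51 for 3 plasmacytoid dendritic cell genes, -0.53 for 6 macrophage genes (4 lower, 2 higher) and -0.49 for 3 monocyte genes. The mean level of these whole lists was 7.38 to 7.91 in DKO against 7.84 to 8.24 in WT, 6.41 to 6.60 against 6.72 to 6.90, and 5.69 to 6.13 against 6.07 to 6.47. Neutrophil markers went the other way, 3 of 3 higher with a median of 0.16. The median was 0.11 for 2 B and plasma cell genes, and the tested T and NK cell genes differed by 0.008 and 0.003. Siglech, which defines plasmacytoid dendritic cells, and Ccr2, of monocytes, were too dim to be tested. The part of these genes in the differences above was not tested.

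The response to activation was not called different between genotypes for any of the genes. In limma, 0 of 35 had an interaction (0% of all genes in either direction), and 1 had an unadjusted p below 0.05 (0.597% of all genes were higher and 0.531% lower at that threshold): Nupr1, whose rise was larger in DKO by 0.39 ± 0.14 (SE, adjusted p = 1.0). The median interaction was 0.00 over the 35 genes.

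Without the replicate block, resting cDC1 differed from resting WT cDC2 in 2 of the listed genes, both lower in cDC1. With a single cDC1 array, the test takes that array to vary as the cDC2 arrays do. Slc7a1, at 8.22 against 10.72 and 10.72, differed by -2.50 ± 0.14 (SE, adjusted p = 4.52e-04), and Nupr1, at 6.92 against 7.72 and 7.57, by -0.73 ± 0.12 (adjusted p = 0.0126). No gene was called higher, where 7.08% of all genes were. In this fit, the 2 of 35 called lower lie near the share over all genes, of which 6.56% were lower. Both calls held without any 1 of the cDC2 arrays, with an adjusted p of up to 0.0494 for Nupr1. All 6 transporters read lower in cDC1, with a median of -0.81. Against replicate 2 of resting WT alone 5 of 6 did, with a median of -0.49. Against replicate 1 alone 6 of 6 did, with a median of -1.31. Next to Slc7a1 came Slc7a11 (-1.10 ± 0.57) and Slc1a5 (-0.89 ± 0.37), neither called. Sesn2 differed by -1.28 ± 0.48 (adjusted p = 0.138). With the replicate block, 13 of 35 genes were called lower and 0 higher, where 17.4% and 15.9% of all genes were. That fit places the unnumbered cDC1 array midway between the numbers. The listed genes were selected on the split it removes, so nothing is read from this count. Over the 35 genes, the cDC1 array lay between the 2 resting WT arrays for 14 of 35 genes (21.9% of all genes), below both for 17 (40%) and above both for 4 (38.1%). Iars, at 9.36 in cDC1, was below replicate 1 (10.03) and above replicate 2 (8.51), and its fitted subset difference of 0.09 had an SE of 1.02. The interferon-stimulated genes were lower in cDC1 as well, 17 of 17 with a median of -1.45 (-0.73 without replicate 2 of resting WT) and 4 called, and their part in the subset differences was not tested.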

How the data were processed

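Sorted splenic cDC were profiled on 9 arrays, whose groups and replicate numbers come from their titles. Labelled cDNA was prepared by a pico-scale whole-transcript protocol, per the labels' protocols. The submitters' processing notes name Affymetrix Expression Console and RMA without versions. The deposited values are linear intensity values per transcript cluster, already normalized (array medians 53.4 to 55.6, same-rank log2 differences of at most 0.31), so a change in total RNA is not visible. Log2 was taken here. Of 28853 clusters, 21789 carried 1 symbol, updated through RefSeq identifiers of GRCm38.p6. Genes with a group mean above the median of those values (61.3, or 5.94 in log2) in at least 1 group were tested: 10728 genes. Precision is limited by the array number.

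Differences were fitted with limma 3.58.1 in R 4.3.3 (lmFit, eBayes, two-sided), 1 mean for each of 5 groups, all 9 arrays, 4 residual degrees of freedom, and adjusted by Benjamini-Hochberg over all genes tested. The planned fit has no replicate block. Same-numbered arrays deviated together, as the replicate differences correlated between all 6 pairs of cDC2 groups (0.454 to 0.695 across 10728 genes), so values with the block stand beside results it changes. This pairing comes from the data and the numbers in the titles, which the labels do not explain. The script was tested on simulated data. Alternatives were the filter, quantile normalization, median centring, log2(value + 32), the mean of a gene's clusters, an intensity trend, cDC2 arrays alone, a replicate block and leaving out each array. Every array's value is printed for genes past the threshold, for the 8 with the largest mean replicate difference and for Atf4. Of a related list at most 3 called genes are named, apart from those said to have been picked by their values. The members and lists were chosen with earlier results of these data known. Promoter motifs were sought in RefSeq windows, and 7 measured genes without a window were not searched.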

Additional observations from a re-analysis of the deposited data

How the results depend on the processing

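With 2 arrays per group, 4 residual degrees of freedom set every error, and genes with a large replicate difference could be called only for large changes. With the replicate block in limma, listed genes called rose from 0 to 2 (Ddit3 and Nupr1, lower) for genotype in resting cells, 1 (Ddit3, lower) in activated cells and 4 in the mean (Ddit3, Mthfd2, Nupr1 and Slc7a5, lower, where 2.6% of all genes were lower). Activation calls became 18 in WT (6 higher, 12 lower), 20 in DKO (5 and 15) and 23 in the mean (6 and 17, where 17% and 35.7% of all genes were called). The subset calls became 13, all lower (17.4% of all genes), with the unnumbered cDC1 array placed midway between the numbers. The interaction stayed at 0. Because the listed genes were selected on the replicate difference, nothing is read from these counts beside the shares of all genes. Leaving out 1 array gave 1 to 2 calls for WT activation, 1 to 3 for DKO activation and 3 to 6 for their mean, 2 for the subset comparison and 0 for genotype and interaction. Of 236 repeats of 14 called differences under all these settings, 195 stayed called, 41 did not and 0 changed direction. Without the brightness filter, Wars in WT (adjusted p = 0.0708) and in DKO (0.053) and Slc1a5 in the mean (0.0649) were not called. The other settings left each count of calls within 1.5 times its value. The median replicate difference ranged from -0.58 to -0.47, and 27 to 29 genes were lower throughout. The count at 0.5 or more was 14 with log2(value + 32) and 17 to 20 otherwise.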
